A study of Homo sapiens with 9 samples.

Results

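The enzymes that make, salvage and clear the deoxynucleotides used for DNA synthesis were described in HCT116 cells, a human colorectal carcinoma cell line, that differ in the ubiquitin ligase HUWE1. The set was chosen by gene symbol and has 9 members, RRM1, RRM2, TYMS, TK1, DUT, DCTPP1, DTYMK, DCK and SAMHD1, all 9 of which were among the 11350 genes of the deposited count table. Ribonucleotide reductase, built from the large subunit RRM1 and a small subunit (RRM2, or the p53-inducible RRM2B), converts ribonucleoside diphosphates into deoxyribonucleoside diphosphates. Thymidine nucleotides are then made by TYMS and DTYMK or salvaged by TK1, while DCK salvages deoxycytidine, DUT and DCTPP1 remove dUTP and modified dCTP, and SAMHD1 hydrolyses deoxynucleoside triphosphates. Cycling cells raise much of this machinery as they enter S phase, the window in which chromosomes are copied.

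The study used RNA sequencing to ask what the catalytic activity of HUWE1 does to gene expression. HUWE1-P were the parental HCT116 cells, and HUWE1-WT and HUWE1-CS were derived from them by CRISPR replacement of the end of the HUWE1 gene with a template that codes for the catalytic cysteine (HUWE1-WT) or a serine in its place (HUWE1-CS), with blasticidin resistance linked behind it through P2A. Each line had 3 untreated libraries. HUWE1-WT thus carried the template and went through puromycin and blasticidin selection as HUWE1-CS did, and both were grown from single cell clones; whether the 3 libraries of a line came from 1 clone or from several is not given in the sources used here.

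The 9 libraries held 1610984 to 2060349 counts each, so that 3 counts corresponded to 1.45 to 1.86 CPM (counts scaled to a common library size). HUWE1 itself had 543 ± 19.8 CPM in HUWE1-P, 469 ± 25.8 in HUWE1-WT and 336 ± 11.7 in HUWE1-CS (SD, n = 3), which says nothing of the single amino acid that was changed. Of 12 colon epithelial markers, 6 were in the table (EPCAM, KRT8, KRT18, KRT19, CDH1 and CDX2), and their summed level was 4115 to 4240.3 CPM in HUWE1-P, 4137 to 4533 in HUWE1-WT and 3669.7 to 4044 in HUWE1-CS. Of these 6, CDH1 (0.53) and EPCAM (0.28) were called higher and KRT8 (-0.32) and KRT18 (-0.30) lower on the log2 scale against HUWE1-P, with a list median of 0.22, and KRT8 alone had 2055 CPM in HUWE1-P and 1643 in HUWE1-CS. KRT20, CDH17, VIL1, CDX1, CEACAM5 and LGALS4 were not in it, and of 14 fibroblast, endothelial and blood cell markers 2 were, COL1A1 and CD68. Those 2 markers together had 31.7 to 36.5 CPM in HUWE1-P, 30.1 to 40.1 in HUWE1-WT and 15.1 to 23.7 in HUWE1-CS, and the part of this difference in the results below was not tested. Replicates were taken from distinct samples according to the study, and the p-values measure the spread between these libraries. If the libraries of a line came from 1 clone, the p-values do not cover differences between clones. A difference between lines could then not be told apart from one between clones.

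Promoters of cell cycle genes often hold a CCAAT box, read by the factor NF-Y, and E2F sites, and such words are shown here as CCAAT stretches of the 3 members called against HUWE1-P and as E2F words of TYMS and DUT. The windows of TK1 and DTYMK (CCAAT) and of DCK (an E2F word) also hold matches, which are not printed. In the RefSeq promoter windows (GRCh38.p14, from 250 bases before to 50 after a start site), CCAAT stood on either strand in 6 of the 14 windows of the 9 genes, against 34.6% of all 35116 windows. Any of the 4 E2F words TTTCCCGC, TTTCGCGC, TTTGCCGC and TTTGGCGC stood in 3 of the 14 windows, one each of DCK, DUT and TYMS, against 3.31% of all windows. The word TTTGAA, the core of the CHR element, stood in 2 of the 14 windows against 15.2% of all. The stretches below show the matched words in capitals on the strand of the gene.
RRM1, chr11:4094649-4094669, plus strand: gtccatatCCAATggggccca
RRM2, chr2:10122608-10122628, plus strand: aggcgcagCCAATgggaaggg
RRM2, chr2:10122638-10122658, plus strand: tggcacagCCAATgggaaggg
RRM2, chr2:10122665-10122685, plus strand: caccaaagCCAATgggaaggg
SAMHD1, chr20:36951735-36951764, minus strand: caggaggCCAATaggctgCCAATactcctt
TYMS, chr18:657606-657629, plus strand: ggacggccGCGGGAAAaggcgcgc
DUT, chr15:48332147-48332170, plus strand: cggggctgGCGGGAAAtttcggtt
DUT, chr15:48332162-48332185, plus strand: atttcggtTTTGGCGCgctccctg

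The window of one RRM2 start site held 3 CCAAT words, 123, 93 and 66 bases before it, and the same 15 letters, agCCAATgggaaggg, stood around each of them. The single word of RRM1 began 28 bases before its start site, and the pair in SAMHD1 began 49 and 38 bases before. In TYMS and in the first DUT stretch the capitals are the reverse complement of an E2F word, while in the second DUT stretch the word reads on the strand of the gene. A match of letters is a description, not a binding site.

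HUWE1-CS cells had less mRNA of both main subunits of ribonucleotide reductase than either control line, RRM1 by 29.0% and RRM2 by 36.3% against HUWE1-P, and more of the alternative small subunit RRM2B. SAMHD1, at a much lower read count, was called lower against HUWE1-P only (against HUWE1-WT -0.34, adjusted p = 0.181, edgeR), and that call was lost in 15 of 21 alternative settings, with an adjusted p of 0.0822 in DESeq2. The remaining 6 members, TYMS, TK1, DTYMK, DCK, DUT and DCTPP1, did not pass the test in either comparison. With edgeR's quasi-likelihood test at a false discovery rate (FDR) of at most 0.01 over all genes, 3 of the 9 members were called in HUWE1-CS against HUWE1-P, all lower, where 17.0% of all genes were called and 8.58% were called lower. Against HUWE1-WT 2 of 9 were called, both lower, with a background of 15.5% and of 8.08% lower. Both comparisons use the same HUWE1-CS libraries. In HUWE1-WT against HUWE1-P edgeR called 0 of 9 members and DESeq2 0 of 9, with 0 at an unadjusted p under 0.05, and 0.0617% of all genes were called by edgeR.

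All 9 estimates were below 0 in HUWE1-CS against HUWE1-P, from -0.65 to -0.04 on the log2 scale, with a median of -0.22, while 50.9% of all genes had an estimate below 0. Against HUWE1-WT all 9 were below 0 as well, from -0.66 to -0.06, with a median of -0.14 and 50.0% of all genes below 0. The median over all genes was -0.0072 and -0.00059 in these comparisons. For members that were not called, the 95% intervals below include 0, except those of TYMS and DUT against HUWE1-P and of DCK against HUWE1-WT.

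**Figure D1:**
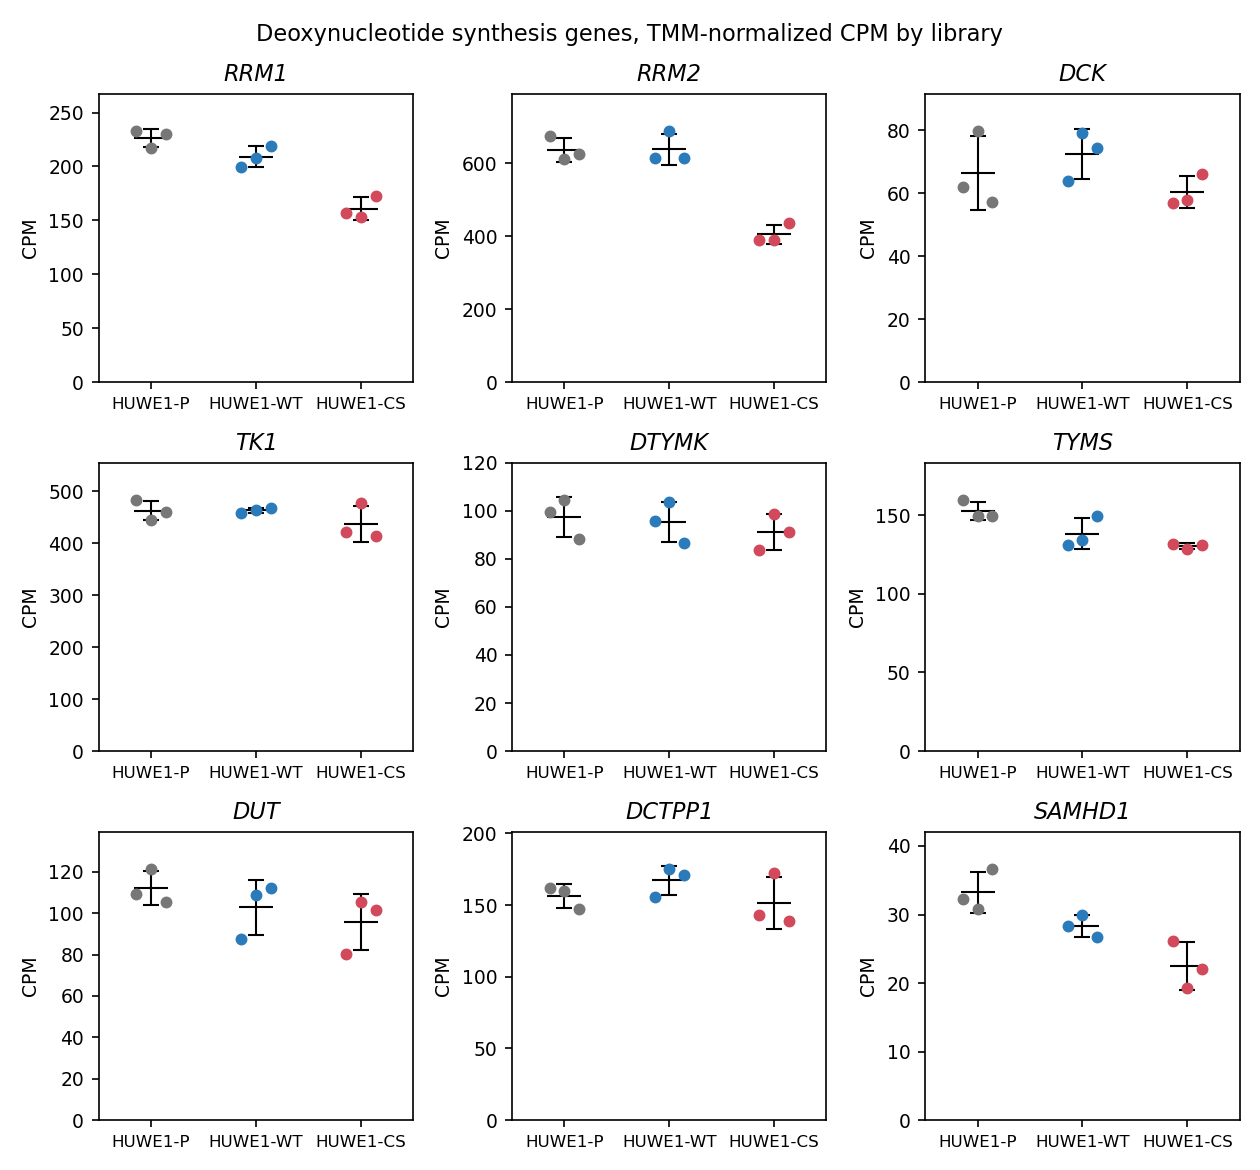
Normalized read counts (CPM, linear axes from 0) of the 9 genes in the 3 libraries of each HCT116 line, as points, with the mean and SD as black bars. The HUWE1-CS points of RRM1, RRM2 and SAMHD1 lie below all 6 control points, while those of the other 6 genes overlap with at least one control line.

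RRM1 (Entrez 6240, chr11:4115937-4160162 on the plus strand of GRCh37) codes for the large subunit, which holds the catalytic and allosteric sites. It had 233, 217 and 230.3 CPM in the HUWE1-P libraries, 199.9, 208 and 219 in HUWE1-WT and 157, 153 and 173 in HUWE1-CS. All HUWE1-CS libraries were below the lowest control library, and HUWE1-WT and HUWE1-P overlapped. The log2 fold change in HUWE1-CS was -0.49 against HUWE1-P (SE 0.078, 95% interval -0.65 to -0.34, adjusted p = 2.31e-07, edgeR). Against HUWE1-WT it was -0.38 (SE 0.079, interval -0.53 to -0.22, adjusted p = 0.000111, edgeR). HUWE1-WT against HUWE1-P gave -0.12 with an interval of -0.27 to 0.03 (adjusted p = 0.912, edgeR).

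RRM2 (Entrez 6241, chr2:10260825-10351851 on the plus strand of GRCh37), whose promoter carries the repeated CCAAT stretches shown above, codes for the small subunit that supplies the tyrosyl radical and is degraded in part of the cell cycle. The HUWE1-P libraries had 675, 612 and 625 CPM and the HUWE1-WT libraries 614, 689 and 615. In HUWE1-CS the values were 391, 389.6 and 435, all below the lowest control. This was the strongest fall among the members, -0.65 against HUWE1-P (SE 0.064, 95% interval -0.78 to -0.52, adjusted p = 1.07e-14, edgeR). The estimate against HUWE1-WT was -0.66 (SE 0.064, interval -0.79 to -0.53, adjusted p = 8.07e-15, edgeR). HUWE1-WT and HUWE1-P overlapped, with a log2 difference of 0.01 and an interval of -0.12 to 0.13.

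RRM2B (Entrez 50484), the small subunit that cells use for deoxynucleotides outside S phase and after DNA damage, is not one of the 9 and was measured beside them. It had 111, 106 and 104 CPM in HUWE1-P, 97.3, 99.8 and 103 in HUWE1-WT and 163, 143 and 161 in HUWE1-CS. The HUWE1-CS libraries were above all controls, the opposite direction from RRM1 and RRM2. The log2 fold change was 0.55 against HUWE1-P (SE 0.090, adjusted p = 6.04e-07, edgeR) and 0.64 against HUWE1-WT (SE 0.092, adjusted p = 2.05e-08, edgeR).

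**Figure D2:**
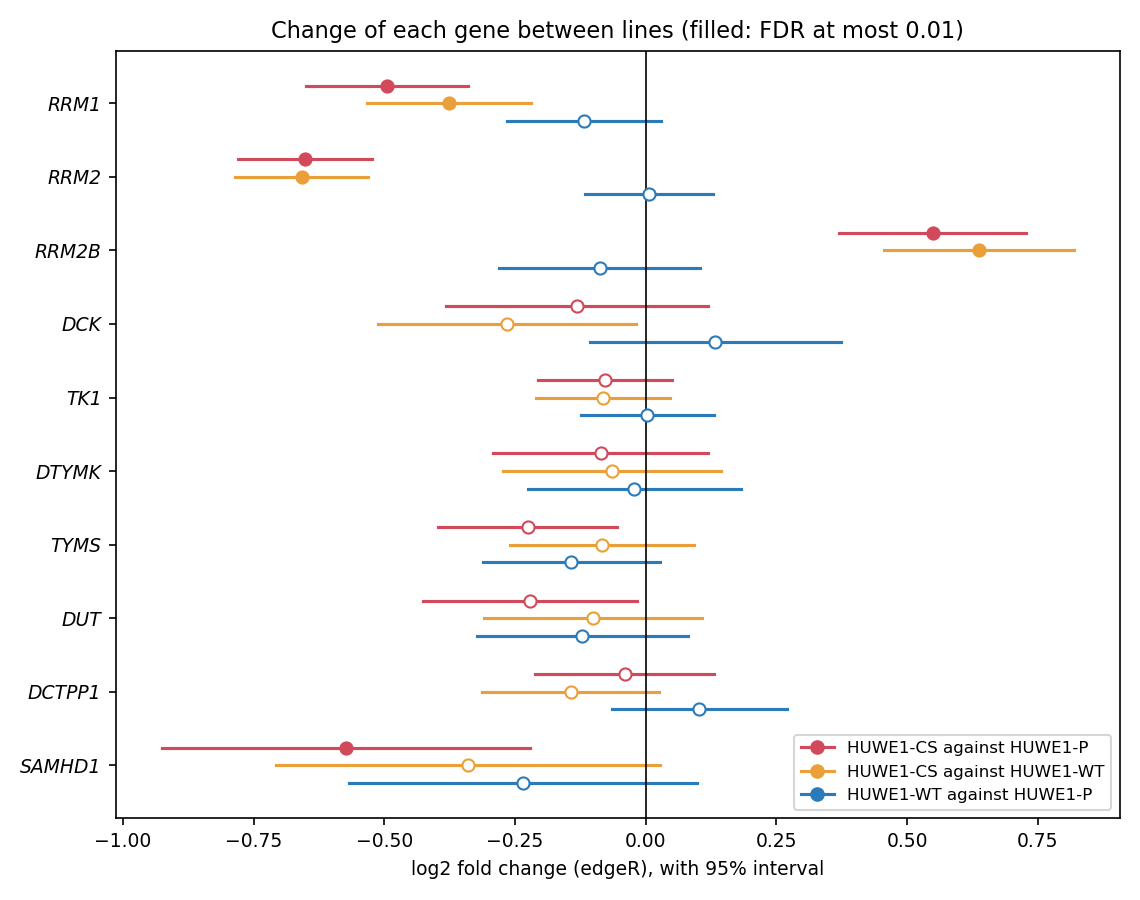
Log2 fold changes (points) with 95% intervals (lines) from the edgeR fit for the 9 genes and RRM2B in the 3 comparisons between lines, where filled points have an FDR of at most 0.01. RRM1 and RRM2 lie left of 0 and RRM2B right of 0 in both comparisons with HUWE1-CS, and most other intervals cross or come close to 0.

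Ratios of genes within a library do not depend on normalization, so the balance of subunit mRNA was compared directly. The ratios and the pooling of both control lines were chosen with earlier results of these data known, so their p-values are not independent support. RRM2 had 2.496, 2.54 and 2.52 reads for each RRM1 read in HUWE1-CS, against 2.90, 2.82 and 2.71 in HUWE1-P and 3.07, 3.31 and 2.81 in HUWE1-WT. RRM2 thus fell further than RRM1, and the ratio in HUWE1-CS was 0.860 of that in the 6 control libraries (two-sided exact permutation test over 84 splits, p = 0.0238, the smallest it can give, adjusted over 4 ratios p = 0.0476). The test took both control lines as 1 group and does not cover differences between them. On the log2 scale this ratio differed by -0.16 from HUWE1-P alone and by -0.28 from HUWE1-WT alone. For each RRM2 read there were 0.417, 0.368 and 0.371 RRM2B reads in HUWE1-CS, against 0.165, 0.172 and 0.166 in HUWE1-P and 0.158, 0.145 and 0.168 in HUWE1-WT. This ratio was 2.37 times that in the controls, again without overlap (exact permutation p = 0.0238, adjusted p = 0.0476). The lack of overlap follows from the levels of RRM2 and RRM2B given above. When 1 control library was left out, the adjusted p of both ratios was 0.0714 (exact permutation). Each p was again the smallest the test can give, so this rise came from the smaller number of splits. Over all 9 libraries left out in turn the difference was -0.24 to -0.18 for RRM2/RRM1 and 1.19 to 1.28 for RRM2B/RRM2 on the log2 scale.

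The corresponding ratios of TYMS to TK1 and of SAMHD1 to RRM1 overlapped between HUWE1-CS and the controls. The log2 difference was -0.07 for TYMS/TK1 (exact permutation p = 0.405, adjusted p = 0.540) and -0.02 for SAMHD1/RRM1 (exact permutation p = 0.881, adjusted p = 0.881). The first compares mRNA for new synthesis of thymidylate with mRNA for its salvage, and the activity of the enzymes was not measured.

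**Figure D3:**
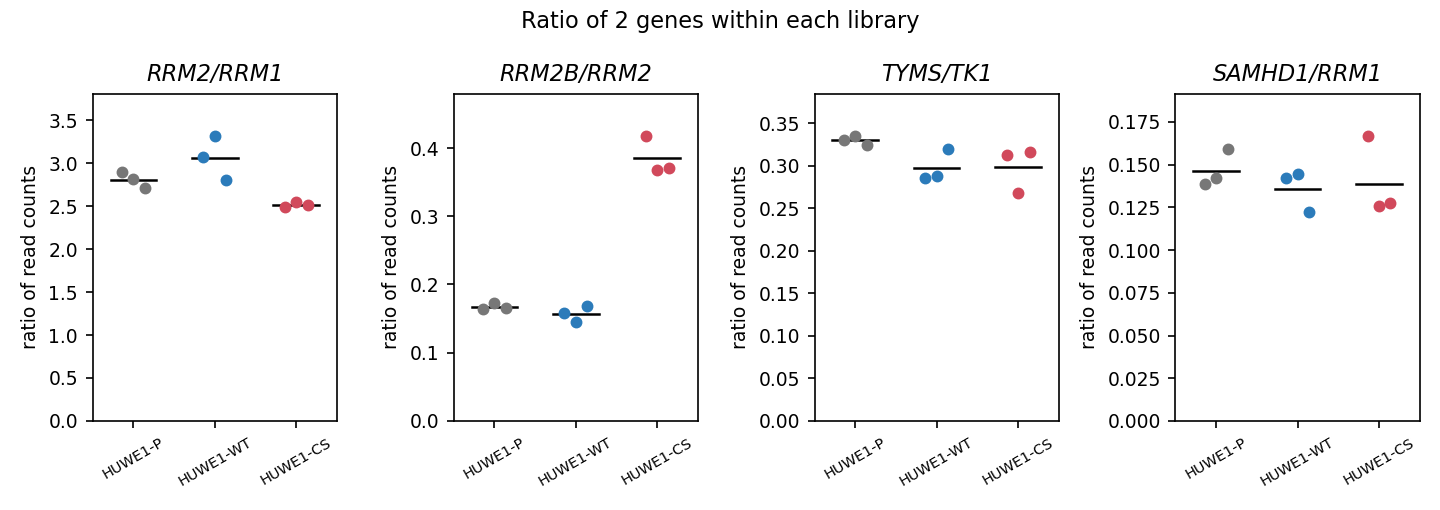
Ratio of the read counts of 2 genes within each library (points, linear axes from 0) in the 3 lines, with the geometric mean of each line as a black bar. The HUWE1-CS points are below all controls for RRM2/RRM1 and above all controls for RRM2B/RRM2, and overlap with the controls for TYMS/TK1 and SAMHD1/RRM1.

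TYMS (Entrez 7298, chr18:657653-673578 on the plus strand of GRCh37) is thymidylate synthase, which methylates dUMP. It had 159.5, 149 and 149 CPM in HUWE1-P, 131, 134 and 149 in HUWE1-WT and 132, 128 and 131 in HUWE1-CS. The HUWE1-CS libraries were below those of HUWE1-P and within the range of those of HUWE1-WT or just under it. The log2 fold change of -0.23 against HUWE1-P (95% interval -0.40 to -0.05) had an adjusted p of 0.0419 in edgeR and so was not called at 0.01. Against HUWE1-WT the estimate was -0.08 with an interval of -0.26 to 0.09 (adjusted p = 0.540, edgeR), and HUWE1-WT against HUWE1-P gave -0.14 (interval -0.31 to 0.03). After removal of a trend of fold change with transcript length, the estimate against HUWE1-P was -0.34 and the gene was called (adjusted p = 0.00089, edgeR).

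The TYMS transcript shares 967 exonic bases with ENOSF1, a gene on the opposite strand, and the use of strand in counting is not given in the sources used here. Without strand, reads of both genes in those bases cannot be told apart. ENOSF1 had 36.0, 42.1 and 36.1 CPM in HUWE1-P, 37.1, 45.8 and 38.4 in HUWE1-WT and 59.3, 59.0 and 46.4 in HUWE1-CS, above all 6 controls. Its log2 fold change was 0.53 against HUWE1-P (adjusted p = 0.00267, edgeR; above 0.01 without HUWE1-P replicate 1 or 3 or HUWE1-CS replicate 1 or 2, at most 0.0238) and 0.44 against HUWE1-WT (adjusted p = 0.0151, edgeR).

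TK1 (Entrez 7083, chr17:76170172-76183314 on the minus strand of GRCh37), the cytosolic thymidine kinase of S phase, had 483, 446 and 459.6 CPM in HUWE1-P, 458, 465 and 467 in HUWE1-WT and 421, 478 and 415 in HUWE1-CS. The HUWE1-CS library with 478 CPM was the second highest of all 9, and the lines overlapped. Its depth made it one of the most precise members, and the intervals of the log2 fold change were -0.21 to 0.05 against HUWE1-P and -0.21 to 0.05 against HUWE1-WT, around estimates of -0.08 and -0.08 (adjusted p = 0.403 and 0.398, edgeR). Neither interval reaches the estimates of RRM1 or RRM2. With the length trend removed, the estimate against HUWE1-P was -0.19 and passed the threshold (adjusted p = 0.0096, edgeR).

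DTYMK (Entrez 1841, chr2:242615162-242626359 on the minus strand of GRCh37) phosphorylates dTMP from either route to dTDP. The values were 99.3, 104 and 88.2 CPM in HUWE1-P, 95.6, 104 and 86.6 in HUWE1-WT and 83.7, 98.7 and 91.2 in HUWE1-CS, with overlap of all 3 lines. The estimates were -0.09 against HUWE1-P (95% interval -0.29 to 0.12) and -0.06 against HUWE1-WT (interval -0.27 to 0.14), neither called. With the length trend removed they were -0.25 (adjusted p = 0.0531, edgeR) and -0.20 (adjusted p = 0.135, edgeR).

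DCK (Entrez 1633, chr4:71858255-71896631 on the plus strand of GRCh37) salvages deoxycytidine and purine deoxynucleosides. It had 62.1, 79.7 and 57.3 CPM in HUWE1-P, 63.7, 79.1 and 74.4 in HUWE1-WT and 57.0, 57.8 and 66.2 in HUWE1-CS. The replicates of HUWE1-P spread more than the lines differed. The estimate was -0.26 against HUWE1-WT (95% interval -0.51 to -0.02, adjusted p = 0.112, edgeR) and -0.13 against HUWE1-P (interval -0.38 to 0.12, adjusted p = 0.483, edgeR).

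DUT (Entrez 1854, chr15:48623208-48635570 on the plus strand of GRCh37) hydrolyses dUTP to dUMP, which keeps uracil out of DNA and feeds TYMS. It had 109, 121 and 106 CPM in HUWE1-P, 87.5, 109 and 112 in HUWE1-WT and 80.1, 105 and 102 in HUWE1-CS. The HUWE1-CS libraries were below those of HUWE1-P, by less than 1 CPM between the nearest libraries, and overlapped with HUWE1-WT. Its log2 fold change was -0.22 against HUWE1-P (95% interval -0.43 to -0.02, adjusted p = 0.104, edgeR) and -0.10 against HUWE1-WT (interval -0.31 to 0.11, adjusted p = 0.532, edgeR). DUT shares 533 exonic bases with DUT-AS1 on the opposite strand, which was not found in the count table.

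DCTPP1 (Entrez 79077, chr16:30434936-30441351 on the minus strand of GRCh37), a pyrophosphatase for dCTP and its modified forms, had 162, 160.0 and 147 CPM in HUWE1-P, 156, 175 and 171 in HUWE1-WT and 143, 172 and 139 in HUWE1-CS. All 3 lines overlapped. The estimate was -0.04 against HUWE1-P (95% interval -0.21 to 0.13) and -0.14 against HUWE1-WT (interval -0.31 to 0.03, adjusted p = 0.227, edgeR), and the latter was -0.27 and called with the length trend removed (adjusted p = 0.0067, edgeR). It shares 645 exonic bases with ZNF771 on the opposite strand, whose log2 fold change was 0.56 against HUWE1-P (adjusted p = 0.0723, edgeR) and 0.61 against HUWE1-WT (adjusted p = 0.0525, edgeR).

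SAMHD1 (Entrez 25939, chr20:35518632-35580296 on the minus strand of GRCh37), the triphosphohydrolase that lowers deoxynucleotide pools, had the lowest counts of the set, 34 to 76 reads a library, where counting error alone is 17.1% at 34 reads. It had 32.3, 30.9 and 36.6 CPM in HUWE1-P, 28.4, 29.99 and 26.7 in HUWE1-WT and 26.1, 19.3 and 22.1 in HUWE1-CS. The HUWE1-CS libraries were below all 6 controls, the highest of them by less than 1 CPM, and HUWE1-WT was below HUWE1-P without overlap. The log2 fold change was -0.57 against HUWE1-P (SE 0.18, 95% interval -0.93 to -0.22, adjusted p = 0.0099, edgeR) and -0.34 against HUWE1-WT (interval -0.71 to 0.03, adjusted p = 0.181, edgeR). The settings in which the call against HUWE1-P was lost included the fits without HUWE1-P replicate 1 (0.0194), 2 (0.0120) or 3 (0.0780), HUWE1-WT replicate 2 (0.0115) or 3 (0.0108), or HUWE1-CS replicate 2 (0.0750) or 3 (0.0341), as adjusted p in edgeR. SAMHD1 shares 1068 exonic bases with TLDC2 on the opposite strand, which was not found in the count table.

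RRM1, RRM2 and SAMHD1 were the 3 of 9 members whose HUWE1-CS libraries all lay below the 6 control libraries, and 13.4% of all genes had this order. The summed level of the 9 members was 1945 ± 62.1 CPM in HUWE1-P, 1916 ± 79.0 in HUWE1-WT and 1556 ± 58.0 in HUWE1-CS (SD, n = 3). RRM1 and RRM2 made up 76.5% of the fall in this sum against HUWE1-P and 78.3% against HUWE1-WT. The sum of the other 7 members overlapped, at 1044 to 1107 CPM in HUWE1-P, 1019.8 to 1095 in HUWE1-WT and 943 to 1059 in HUWE1-CS. In bulk RNA, fewer cells in the phase that expresses a gene and less of its RNA per cell cannot be told apart.

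Levels of different genes were compared per length, as reads per kilobase of the canonical transcript, scaled as CPM (RPKM). In HUWE1-P the order was TK1 at 323 ± 13.2, RRM2 at 196 ± 10.3, DCTPP1 at 132 ± 6.91, TYMS at 94.7 ± 3.65, DTYMK at 92.6 ± 7.90, RRM1 at 72.2 ± 2.66, DUT at 52.3 ± 3.84, DCK at 26.5 ± 4.70 and SAMHD1 at 7.15 ± 0.644 (SD, n = 3). Only TYMS and DTYMK overlapped among neighbours in this order, and in HUWE1-WT the same pair was exchanged and overlapped. In HUWE1-CS RRM2 at 124 ± 7.998 RPKM overlapped with DCTPP1 at 128 ± 15.5, and RRM1 at 51.2 ± 3.38 overlapped with DUT at 44.7 ± 6.38. RRM2B had 22.4 ± 0.818 RPKM in HUWE1-P and 32.7 ± 2.28 in HUWE1-CS, still below RRM2. When all annotated exons were taken as the length, an alternative chosen after seeing the data, RRM2 ranked 3, 3 and 4 in HUWE1-P, HUWE1-WT and HUWE1-CS in place of 2, 2 and 3.

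The genes most like RRM2 over the 9 libraries, among 8183 genes with a mean of at least 20 CPM, were TUBB (Pearson r of log2 CPM 0.995), COTL1 (0.990) and LDHA (0.987). Those most like RRM1 were LRRC59 (0.986), SOCS6 (0.984) and CCDC86 (0.984). RRM1 and RRM2 had an r of 0.947 with each other and RRM2 and RRM2B of -0.928, all of which rest on the same 9 libraries in 3 lines and are given as a description.

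Genes next to the set in nucleotide metabolism moved in both directions. Of 36 other genes of deoxynucleotide and nucleotide handling in the table, 6 were called higher and 2 lower in HUWE1-CS against HUWE1-P, where 8.46% of all genes were called higher and 8.58% lower, and the median log2 fold change was 0.06. Against HUWE1-WT 4 were higher and 3 lower, with 7.42% of all genes higher and 8.08% lower, and the median was 0.01. TXNRD1, the thioredoxin reductase that feeds electrons to ribonucleotide reductase through thioredoxin, fell from 762 ± 44.7 CPM in HUWE1-P and 762 ± 21.7 in HUWE1-WT to 459 ± 8.58 in HUWE1-CS (log2 fold change -0.73 and -0.73, adjusted p = 3.34e-18 and 3.59e-18, edgeR). The mitochondrial adenylate kinase family member AK3 rose by 0.62 and the nucleoside diphosphate kinase NME3 by 0.68 on the log2 scale against HUWE1-P (adjusted p = 2.29e-05 and 4.44e-07, edgeR). Against HUWE1-WT they had 0.43 and 0.41 (adjusted p = 0.00407 and 0.00181, edgeR; 0.0370 and 0.0223 in DESeq2), a call lost without HUWE1-CS replicate 1 or HUWE1-WT replicate 2 or 3 for AK3 and without HUWE1-CS replicate 2 for NME3. The number of genes called of this list was 5 to 8 against HUWE1-P when 1 library was left out, lowest without HUWE1-CS replicate 2, and 3 to 7 against HUWE1-WT, with 3 without HUWE1-WT replicate 3 and 4 without HUWE1-CS replicate 2.

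The folate cycle, which supplies the one-carbon unit that TYMS uses, had 1 gene called higher and 5 lower of 15 against HUWE1-P, and 1 and 4 against HUWE1-WT, with medians of -0.16 and -0.14. Beside this list and the purine and pyrimidine lists below, 8.46% of all genes were called higher and 8.58% lower against HUWE1-P. Against HUWE1-WT these shares were 7.42% and 8.08%. MTHFD2, the mitochondrial enzyme, rose by 0.28, and MTHFD1, the cytosolic enzyme, changed by -0.33, the methionine synthase MTR by -0.56 and the folate carrier SLC19A1 by -0.39 on the log2 scale against HUWE1-P. Against HUWE1-WT they had 0.27, -0.30, -0.38 and -0.37, and MTR was not called there (adjusted p = 0.0185, edgeR). SLC19A1 was not called by DESeq2 against HUWE1-P or HUWE1-WT (adjusted p = 0.0300 and 0.0426). The called genes of the folate list numbered 3 to 6 against HUWE1-P when 1 library was left out (3 without HUWE1-CS replicate 1) and 3 to 5 against HUWE1-WT (3 without HUWE1-WT replicate 1 or 3 or HUWE1-CS replicate 2). Of 12 genes of purine synthesis 3 were called lower and 0 higher by edgeR against HUWE1-P, PRPS1, PRPS2 and IMPDH1, with a median of -0.09, and 2 lower and 1 higher against HUWE1-WT, with a median of -0.07. Of the purine list 0 to 3 genes were called in either comparison when 1 library was left out. None was called by edgeR against HUWE1-P without HUWE1-P replicate 1 or HUWE1-CS replicate 1, nor against HUWE1-WT without HUWE1-CS replicate 1 or HUWE1-WT replicate 3, DESeq2 called 0 in both comparisons, and over all settings 0 to 7 were called against HUWE1-WT. Of 8 genes of pyrimidine ribonucleotide synthesis 1 was higher, the uridine kinase family member UCKL1, and 1 lower in both comparisons, with medians of -0.21 and -0.18, and 1 or 2 were called against HUWE1-P without 1 library (1 without any HUWE1-P library, HUWE1-WT replicate 3 or HUWE1-CS replicate 2 or 3). The lower gene was CAD, which starts the pathway, with 314 ± 4.12 CPM in HUWE1-P, 277 ± 14.3 in HUWE1-WT and 211 ± 4.03 in HUWE1-CS (log2 fold change -0.58 and -0.39, adjusted p = 1.02e-10 and 8.79e-06, edgeR).

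Because cycling cells raise much of this machinery in S phase, S phase and G2/M genes were counted in the same fits. Of 39 S phase replication genes 9 were called lower and 1 higher against HUWE1-P, where 8.58% of all genes were called lower and 8.46% higher. Against HUWE1-WT 5 were lower and 1 higher, where 8.08% of all genes were called lower, 7.42% higher and 15.5% in either direction. The medians of the S phase list were -0.11 and -0.12. When 1 library was left out, 4 to 10 were called against HUWE1-P, with 4 without HUWE1-P replicate 3 and 6 without HUWE1-CS replicate 1, and 6 to 8 against HUWE1-WT. Their summed level was 6298 to 6542 CPM in HUWE1-P, 6371 to 6500.0 in HUWE1-WT and 5740 to 5983 in HUWE1-CS, without overlap, and its part in the fall of RRM1 and RRM2 was not tested. The cyclin CCNE2, which drives entry into S phase, was lowest relative to HUWE1-P, with -1.50 (SE 0.20, adjusted p = 3.91e-09, edgeR), followed among the named genes by the helicase subunit MCM6 with -0.53 and UHRF1, which maintains DNA methylation, with -0.43. PCNA, the sliding clamp of replication, was higher, at 337 ± 24.9 CPM in HUWE1-CS against 285 ± 15.5 in HUWE1-P (0.24, adjusted p = 0.0054, edgeR). That call was lost without HUWE1-P replicate 2 or 3 or HUWE1-CS replicate 1 or 2 (adjusted p up to 0.0522, edgeR) and with the length trend removed (0.10, adjusted p = 0.265, edgeR), and PCNA was not called against HUWE1-WT (0.21, adjusted p = 0.0178, edgeR). The gene called higher there was the DNA ligase LIG1, named after its values were seen (0.42, adjusted p = 0.000162, edgeR), which was not called against HUWE1-P (0.27, adjusted p = 0.0161, edgeR). Of 19 G2/M genes 3 were called lower and 0 higher by edgeR against HUWE1-P (MKI67 with -0.75, CCNA2 with -0.32 and CENPF with -0.26), and 4 lower and 0 higher against HUWE1-WT, with medians of -0.05 and -0.05. Of these, 1 to 3 were called against HUWE1-P when 1 library was left out, with 1 without HUWE1-P replicate 3 or HUWE1-CS replicate 1 or 2.

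Among 21 regulators of these genes, 4 were called lower and 1 higher against HUWE1-P and 5 lower and 2 higher against HUWE1-WT, with medians of -0.13 and -0.14. Over all genes 8.58% were called lower and 8.46% higher against HUWE1-P, and 8.08% lower and 7.42% higher against HUWE1-WT. Against HUWE1-WT 3 to 7 of the regulators were called when 1 library was left out, with 3 without HUWE1-CS replicate 1 or HUWE1-WT replicate 3 and 4 without HUWE1-CS replicate 3. Against HUWE1-P 4 to 5 were called when 1 library was left out and 1 to 8 over all settings. RBL2, a pocket protein that represses E2F targets, rose by 0.79 on the log2 scale against HUWE1-P. Against HUWE1-WT it rose by 0.54 (adjusted p = 0.00381, edgeR, and 0.0417 in DESeq2), a call lost in 4 of the 9 fits that left out 1 library. The repressor E2F8 changed by -0.69, the DREAM subunit LIN54 by -0.69 and the F-box protein SKP2 by -0.61 against HUWE1-P. None of these was called there in DESeq2 (adjusted p = 0.0134, 0.0153 and 0.0132). Against HUWE1-WT DESeq2 called SKP2 alone of them (adjusted p = 0.00066). CCNF, the F-box protein that targets RRM2 for degradation, had -0.33 against HUWE1-P (adjusted p = 0.00842, edgeR) and -0.38 against HUWE1-WT. The activator E2F1 had -0.08 with an adjusted p of 0.725 (edgeR). E2F4, of the same list, had 194 ± 13.0 CPM in HUWE1-CS, 164 ± 13.8 in HUWE1-P and 151 ± 6.04 in HUWE1-WT (SD, n = 3). Of the 25 pathway and cell cycle genes named by rule, 14 kept their call against HUWE1-P in each of the 9 fits that left out 1 library, and 11 (among them SLC19A1, IMPDH1, PRPS1, PRPS2, UCKL1, PCNA, CCNA2, CENPF, LIN54 and SKP2) lost it in at least 1, with an adjusted p of up to 0.144 in edgeR.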

How the data were processed

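Single-end poly(A) RNA-seq of 3 HCT116 lines with 3 libraries each was analysed. Per the labels, the authors demultiplexed with bcl2fastq 2.20, mapped to hg19 with STAR 2.5.4 and used edgeR 3.26.8. The authors deposited read counts per gene, and the counting tool, annotation, use of strand and any filter on low genes are not given in the sources used here. The other deposited tables hold the authors' own fold changes, mean log CPM, F, p and FDR and were not used.

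Lines were taken from the sample titles. Counts of all 11350 genes were fitted with edgeR 4.0.16 (R 4.3.3, limma 3.58.1), TMM normalization, all 9 libraries, the line as the only factor, and the legacy quasi-likelihood test. Genes with a Benjamini-Hochberg FDR of at most 0.01 over all genes were called, after the study's limit. Genes without a symbol (147) held 0.505% of counts and were kept. The scripts were tested on simulated data. The spread between libraries corresponded to a biological coefficient of variation of 4.77%, and chi-square per degree of freedom of replicate pairs was 1.16 to 1.65, so no library was counted as a duplicate. Ratios were tested by exact permutation (SciPy 1.17.1). Lengths came from the GENCODE annotation on GRCh37, which matched 11114 genes, and promoters from RefSeq, GRCh38.p14.

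The members, the gene lists, the ratios and the pooling of both control lines for the ratios were chosen with earlier results of these data known. Genes were named by rule: all 9 members, RRM2B, genes of the count table that overlap a member, and in each list up to 3 called genes in each direction with the smallest p against HUWE1-P. Overlapping genes outside the count table, among them TLDC2, DUT-AS1, TYMSOS and RRM1-AS1, have no values here. TYMS, DUT and RRM2 have processed pseudogenes, none of which was in the table. CCNF, E2F1 and E2F4 were named after their values were seen, and some genes of the lists are counted but not reported by name here. Alternatives were DESeq2 1.42.0, RLE or no scaling, a minimum of 10 counts, only the lines compared, robust and newer fits, an FDR of 0.05, removal of trends with length or GC content, a replicate block, other control lines or a pseudocount of 0.5 for ratios, and leaving out each library. Floors of 3 counts and the counting error given cover counting error only, since reads carry no molecular identifiers, while the 95% intervals of fold changes come from edgeR and include the spread between libraries.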

Additional observations from a re-analysis of the deposited data

How the results depend on the processing

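RRM1, RRM2 and RRM2B kept their direction and call in HUWE1-CS against both control lines under all 21 alternatives, and RRM2 ranged from -0.70 to -0.61 against HUWE1-P when 1 library was left out. Between 2 and 4 members were called against HUWE1-P and 2 or 3 against HUWE1-WT over these settings, since SAMHD1 lost its call, TYMS gained one at an FDR of 0.05, and TYMS, TK1 and DCTPP1 gained one with the length trend removed. DESeq2 called 1088 genes against HUWE1-P and 998 against HUWE1-WT, where edgeR called 1934 and 1759, and an FDR of 0.05 gave 2999 and 2774. In HUWE1-WT against HUWE1-P 7 genes were called, 0 by DESeq2, 1 in the robust fit, 4 with at least 10 counts, 13 at an FDR of 0.05 and 1 to 19 without 1 library.

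The sign of small differences turned, and the cause was not tested. With the length trend removed, RRM2 was -0.0016 and TK1 -0.0230 in HUWE1-WT against HUWE1-P, and MOB1B, which overlaps DCK on the same strand, was 0.0467 in HUWE1-CS against HUWE1-P. With the GC trend removed TK1 was -0.0106 and MOB1B 0.0185, and with the replicate block as well -0.0102 and 0.0201.

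When 1 library was left out, HUWE1-CS against HUWE1-P ranged from -0.239 to 0.021 for DCK, -0.137 to 0.028 for DCTPP1 and -0.120 to 0.0113 for MOB1B. HUWE1-CS against HUWE1-WT ranged from -0.128 to 0.0088 for DTYMK, -0.202 to 0.0103 for DUT and -0.194 to 0.0467 for MOB1B. HUWE1-WT against HUWE1-P ranged from -0.0954 to 0.0409 for DTYMK, -0.0491 to 0.0486 for RRM2 and -0.0231 to 0.0330 for TK1. The log2 ratios ranged from -0.241 to -0.183 (RRM2/RRM1), 1.19 to 1.28 (RRM2B/RRM2), -0.153 to 0.0487 (SAMHD1/RRM1) and -0.114 to 0.0050 (TYMS/TK1). Without a control library the adjusted p of RRM2/RRM1 and RRM2B/RRM2 was 0.0714 (exact permutation), with each p the smallest the test can give there. Leaving out a HUWE1-CS library was given as a value without a test.

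Same-numbered libraries of different lines deviated together with correlations of -0.0195 to 0.0579, and other-numbered libraries with -0.0653 to 0.0333. These correlations were weak and cannot decide whether the numbers pair the libraries. The main fit used no pairing. The replicate block gave 3 and 2 called members as before, and 2021 and 1835 genes in place of 1934 and 1759.

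Fold changes fell with transcript length (Spearman's rho across genes -0.232 against HUWE1-P), which touches TYMS, TK1, DCTPP1, DTYMK and PCNA. The depth left a SAMHD1 count of 34 reads in 1 library, and differences under the intervals given were not detectable at this depth. Reads of antisense genes were not separated here, and whether the counting separated them is not given in the sources used here.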

Other observations

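The nucleoside phosphorylases UPP1 and TYMP, from the list of deoxynucleotide and nucleotide handling genes and named here after their values were seen, act on nucleosides outside the route of synthesis. UPP1, the uridine phosphorylase, had 25.5 ± 2.54 CPM in HUWE1-CS against 14.3 ± 2.41 in HUWE1-P and 13.0 ± 2.80 in HUWE1-WT (SD, n = 3), with log2 fold changes of 0.85 and 0.96 (adjusted p = 0.0014 and 0.00044, edgeR). TYMP, the thymidine phosphorylase that breaks down the substrate of TK1, had 42.3 ± 2.87 CPM in HUWE1-CS, 27.7 ± 3.61 in HUWE1-P and 33.6 ± 7.34 in HUWE1-WT, and was called against HUWE1-P (0.61, adjusted p = 0.00268, edgeR) but not against HUWE1-WT (0.33, adjusted p = 0.121, edgeR). The deaminase DCTD, which makes dUMP from dCMP, had 0.21 and 0.31 and was not called (adjusted p = 0.154 and 0.0294, edgeR).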
